A study of Drosophila melanogaster with 15 samples.

Results

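Muscle contractile proteins were followed here through 10 genes, which are *Mhc*, *Mlc1*, *Mlc2*, *Prm*, *fln*, *Act88F*, *Tm2*, *up*, *wupA* and *TpnC4*. They were taken by gene symbol from the abundance table, 10 of its 17031 genes, and they hold 72 of its 33973 transcripts with a value. Levels are TPM, a share of all transcripts corrected for their length, in whole-body RNA of mated adult females about 7 days old, with 5 pooled flies in each library. The 15 libraries form 4 groups, which are w1118 controls in normoxia (ambient air, 3 libraries numbered 2 to 4), w1118 in hypoxia (1% oxygen for 16 h, 4 libraries), *foxo* mutants in normoxia (4) and *foxo* mutants in hypoxia (4). The mutants came from a stock of the deletion allele foxoΔ94 over the TM6B balancer, and controls and mutants are separate strains. The comparisons asked whether hypoxia changes these genes and whether that response needs FOXO, the transcription factor that is active when insulin signalling is low.

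A muscle shortens when thick filaments of myosin pull on thin filaments of actin. In Drosophila a single gene, *Mhc*, encodes every muscle myosin heavy chain through alternative splicing. Its neck binds an essential light chain (*Mlc1*) and a regulatory light chain (*Mlc2*). Paramyosin (*Prm*) lies in the core of the thick filament, and flightin (*fln*) binds the thick filaments of the indirect flight muscles. On the thin filament tropomyosin (*Tm2*) and the troponin complex block the myosin sites until calcium arrives. Troponin T is the product of upheld (*up*), troponin I of wings up A (*wupA*) and troponin C of a small family that includes the flight muscle form *TpnC4*. *Act88F* is the actin of the indirect flight muscles.

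On the dm6 assembly *Mhc* lies on chromosome arm 2L (16766566 to 16788766, plus strand), and the arm 3R holds *Mlc1* (27657078 to 27660177, minus strand), *Mlc2* (30171438 to 30174551, minus), *Tm2* (15310193 to 15315197, plus) and *Act88F* (15439969 to 15442177, plus). The arm 3L holds *Prm* (8732858 to 8745310, minus) and *fln* (19989551 to 19991220, minus). The X chromosome holds *up* (13593474 to 13602578, minus) and *wupA* (18105568 to 18116922, minus), and *TpnC4* lies on 2R. The number of deposited transcripts differed widely among the genes, from 1 for *Act88F* and *Mlc2* to 13 for *wupA*, 18 for *up* and 21 for *Mhc*. In the annotation the 21 *Mhc* transcripts encode proteins of 1936 to 1962 residues, and the 5 *Prm* transcripts encode proteins of 307 to 879 residues.

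Some facts of the whole series bear on these genes. The *foxo* transcript stood at 20.05 to 21.19 TPM in w1118 normoxia and 18.3 to 39.9 TPM in w1118 hypoxia, and at no more than 0.257 TPM in the mutants, which fits the labels. TPM are scaled to a common total and the depth of a library is unknown, so errors are those between replicates. The median log2 change over the 10288 genes tested was 0.22 for hypoxia in w1118 and −0.22 for the mutant against the control in hypoxia, and changes below are to be read beside these shifts. In w1118 hypoxia replicates 1 and 3, and in *foxo* hypoxia replicate 2, most of the 10 genes were low together.

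The 7 genes that many muscles share were measured at 14.8 to 159 TPM in every library. In w1118 normoxia the order of the means was *up* (134 TPM), *Mlc2* (127), *wupA* (88.0), *Mlc1* (78.4), *Tm2* (68.9), *Mhc* (44.5) and *Prm* (26.6). TPM are per transcript length, so these levels can be set side by side. The ranges of *up* and *Mlc2* overlapped, as did those of *wupA* with *Mlc1* and of *Mlc1* with *Tm2*, while *Mlc2*, *Tm2* and *Mhc* each lay wholly above the next gene in the order. The sum over the 10 genes was 0.0580 ± 0.00426% of all TPM in w1118 normoxia (mean ± SD, n = 3).

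The genes of the indirect flight muscles were measured at low levels. *Act88F* lay between 0.659 and 8.61 TPM, *fln* between 0.847 and 3.68 TPM and *TpnC4* between 0.621 and 4.93 TPM over the 15 libraries. Together they made 0.567 to 2.75% of the summed TPM of the 10 genes. The other 7 genes were at over 14 TPM, and the 3 flight muscle genes lay below these 7 in every group. Why the flight muscle genes were this low in whole flies was not tested. *Act88F* shares most of its sequence with other actin genes, and how reads were split among them is uncertain.

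**Figure D1:**
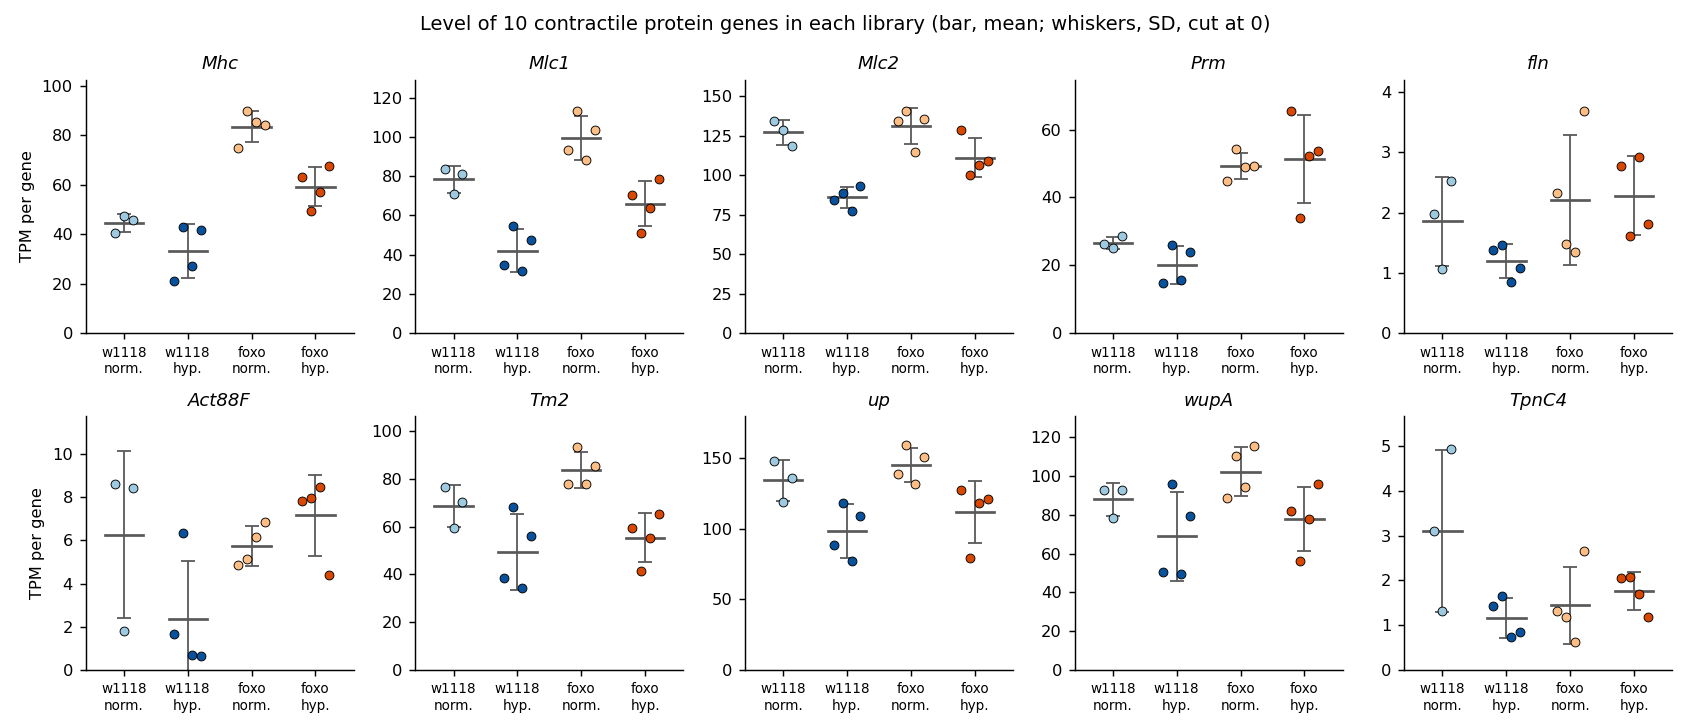
Level of each of the 10 genes in TPM (y axis, starting at 0) in the 4 groups (x axis), where each point is a library, the bar is the mean and the whiskers are the SD, cut at 0. *Mlc1* and *Mlc2* in w1118 hypoxia lie wholly below w1118 normoxia, *Mhc* and *Prm* in the mutants lie above the controls in each oxygen condition, and *fln* and *TpnC4* stay under 5 TPM.

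In w1118 females 2 of the 10 genes fell in hypoxia and none rose, and both that fell encode light chains of myosin. *Mlc1* fell by 0.91 ± 0.19 on the log2 scale (SE, adjusted p = 0.00245) and *Mlc2* by 0.56 ± 0.12 (adjusted p = 0.00313). Over all genes tested, 9.84% fell and 16.2% rose at the same threshold, an adjusted p under 0.05 by limma on log2(TPM + 1). At an unadjusted p under 0.05 7 of the 10 genes were lower and 0 were higher. All 10 changes were below 0, with a median of −0.50 beside 0.22 over all genes tested. In whole flies fewer muscle cells and less RNA per muscle cell cannot be told apart. TPM are a share of all transcripts, so a change in the RNA of other tissues cannot be told apart from these either.

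The essential light chain *Mlc1* was measured at 83.8, 70.6 and 80.9 TPM in w1118 normoxia and at 34.5, 54.7, 31.7 and 47.4 TPM in hypoxia. Each hypoxia library lay below each normoxia library. The regulatory light chain *Mlc2* went from 134, 129 and 119 TPM to 84.6, 88.4, 77.5 and 93.4 TPM, again with no overlap, and its hypoxia libraries lay close to each other. The calls of both light chains held in 10 other settings and with each of the 15 libraries left out in turn. At a minimum change of 1.5-fold, the remaining setting, *Mlc1* alone was counted.

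The other thick filament genes did not pass. *Mhc* stood at 40.6, 47.3 and 45.6 TPM in normoxia and at 20.9, 42.9, 26.9 and 41.7 TPM in hypoxia (log2 change −0.47 ± 0.21, adjusted p = 0.108). Hypoxia replicates 2 and 4 lay within the normoxia range and replicates 1 and 3 below it. *Prm* showed the same split of its hypoxia libraries, with 14.8 and 15.6 TPM in replicates 1 and 3 and 25.9 and 23.8 TPM in replicates 2 and 4, against 25.2 to 28.6 TPM in normoxia (−0.43 ± 0.22, adjusted p = 0.158). The thick filament binding protein gene *fln* was listed at 1.06 to 2.53 TPM in normoxia and 0.847 to 1.47 TPM in hypoxia (−0.36 ± 0.25, adjusted p = 0.308).

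On the thin filament no gene passed either, and the spread of the hypoxia libraries was again wide. Troponin T (*up*) stood at 148, 119 and 136 TPM in normoxia and at 88.8, 118, 76.9 and 109 TPM in hypoxia, groups that did not overlap (−0.46 ± 0.18, adjusted p = 0.0701). For troponin I (*wupA*) 78.2 to 93.0 TPM in normoxia stood against 49.3 to 96.1 TPM in hypoxia (−0.40 ± 0.23, adjusted p = 0.199), and *Tm2* had 59.4 to 76.8 against 34.2 to 68.4 TPM (−0.52 ± 0.22, adjusted p = 0.0887). With *Mlc1* and *Mlc2*, *up* made 3 of 10 genes with hypoxia libraries wholly below normoxia, beside 12.5% of all genes, while 0 lay wholly above, beside 25.2%.

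The flight muscle actin had the largest change of the 10 genes, and with the flight muscle troponin C the widest intervals. *Act88F* was listed at 8.61, 1.78 and 8.42 TPM in normoxia and at 1.68, 6.36, 0.667 and 0.659 TPM in hypoxia (−1.22 ± 0.49, adjusted p = 0.0774). *TpnC4* went from 3.10, 1.31 and 4.93 TPM to 1.43, 1.65, 0.732 and 0.839 TPM (−0.85 ± 0.30, adjusted p = 0.0512). Normoxia replicate 3 was low for both genes and overlapped the hypoxia libraries. In the fit with the replicate number as a block, over all 15 libraries of both genotypes, *TpnC4* passed (−0.89 ± 0.28, adjusted p = 0.0303) and 3 genes fell, beside 9.93% of all genes.

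How many genes fell in w1118 depended on the scaling and on single libraries. With median-of-ratios scaling 8 of the 10 genes fell, all but *Act88F* and *fln*, beside 17.6% of all genes falling and 12.8% rising, and 42.1% of the calls were then upward against 62.2% on the TPM as deposited. With the total taken without ribosomal protein and eggshell genes 6 fell, beside 11.6% of all genes. Without w1118 hypoxia replicate 2, which held the highest level of 9 of the 10 genes in its group, 7 fell, beside 10.5% of all genes, and without w1118 normoxia replicate 3 the count was 4, beside 8.84%. *TpnC4* also passed without w1118 hypoxia replicate 1, *foxo* normoxia replicate 3 or 4 or *foxo* hypoxia replicate 4 (adjusted p = 0.0467, 0.0474, 0.0385 and 0.0447), and *up* without *foxo* hypoxia replicate 2 (adjusted p = 0.0247).

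**Figure D2:**
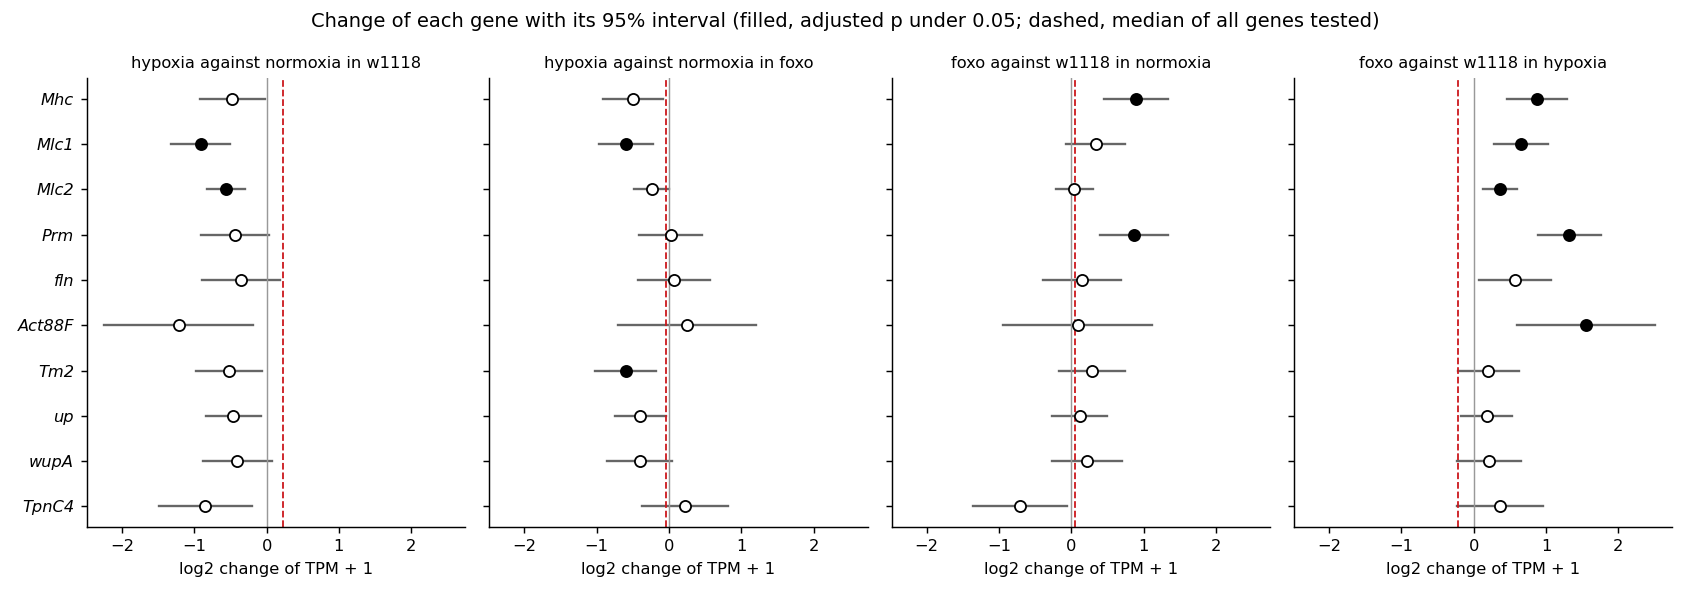
Change of each gene (y axis) on the log2(TPM + 1) scale (x axis) in 4 comparisons, with 95% intervals from the limma fit, where filled points have an adjusted p under 0.05 and the dashed line is the median over all 10288 genes tested. All 10 points lie below 0 for hypoxia in w1118 and all 10 lie above 0 for the mutant against the control in hypoxia.

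In *foxo* mutants 2 of the 10 genes fell in hypoxia and 0 rose, beside 13.5% of all genes that fell and 9.34% that rose. *Mlc1* fell by 0.60 ± 0.18 (adjusted p = 0.0223) and tropomyosin *Tm2* by 0.60 ± 0.20 (adjusted p = 0.0410). At an unadjusted p under 0.05 by limma 5 were lower and 0 higher. The median over the 10 genes was −0.32, beside −0.04 over all genes tested, and 6 of the 10 changes were below 0.

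*Mlc1* was measured at 93.3, 113, 88.0 and 103 TPM in *foxo* normoxia and at 70.4, 51.2, 63.7 and 78.3 TPM in *foxo* hypoxia, and *Tm2* went from 77.9, 93.6, 78.0 and 85.3 TPM to 59.7, 41.6, 55.1 and 65.5 TPM. The groups of both genes did not overlap. *Mhc* (74.8 to 89.7 against 49.6 to 67.4 TPM, −0.49 ± 0.19, adjusted p = 0.0816) and *up* (132 to 159 against 79.1 to 128 TPM, −0.40 ± 0.17, adjusted p = 0.101) also did not overlap but missed the threshold, so that 4 genes lay wholly below, beside 16.1% of all genes, and 0 wholly above, beside 10.3%. For *Mlc2* (115 to 140 against 100.4 to 129 TPM) the change was −0.24 ± 0.11, and for *wupA* (88.7 to 115 against 56.1 to 95.7 TPM) it was −0.40 ± 0.21.

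The other 4 genes had changes of 0.02 to 0.25 in the mutant, none past the threshold. *Prm* stood at 44.9 to 54.2 TPM in normoxia and 34.0 to 65.4 TPM in hypoxia (0.02 ± 0.20). The flight muscle genes had log2 changes of 0.25 ± 0.45 (*Act88F*), 0.07 ± 0.23 (*fln*) and 0.22 ± 0.28 (*TpnC4*). *foxo* hypoxia replicate 2 had the lowest level of 8 of the 10 genes in its group.

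The 2 calls in the mutant were close to the threshold. Without *foxo* normoxia replicate 2 or 4 or *foxo* hypoxia replicate 2 or 3 neither *Mlc1* (adjusted p = 0.0684, 0.0564, 0.0578 and 0.0505) nor *Tm2* (0.103, 0.0859, 0.101 and 0.0738) passed, so that 0 fell. Without w1118 normoxia replicate 2 or 4, *foxo* normoxia replicate 1 or 3 or *foxo* hypoxia replicate 1 *Tm2* alone was lost, with adjusted p = 0.0501, 0.0544, 0.0665, 0.0681 and 0.0619, and without w1118 hypoxia replicate 1 *Mhc* passed as well (adjusted p = 0.0312).

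None of the 10 genes differed in its hypoxia response between the genotypes at the threshold, beside 1.55% of all genes with the higher log2 change in w1118 and 1.07% with the higher one in the mutant. With median-of-ratios scaling these shares were 0.992% and 1.49%, which turns the balance of all calls toward the mutant. By limma 2 genes had an unadjusted p under 0.05, both lower in w1118. The difference, w1118 minus *foxo*, was −1.47 ± 0.66 for *Act88F* (95% interval −2.87 to −0.06, adjusted p = 0.359) and −1.07 ± 0.41 for *TpnC4* (−1.95 to −0.19, adjusted p = 0.250). For the 7 shared genes it lay between −0.46 (*Prm*, interval −1.10 to 0.18) and 0.08 (*Tm2*, −0.54 to 0.71). The fall of *Mlc1* differed by −0.32 (−0.87 to 0.23), and that of *Mlc2* by −0.32 (−0.67 to 0.03). These intervals leave room for differences of the size of the hypoxia changes themselves.

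In normoxia 2 of the 10 genes were higher in *foxo* mutants than in w1118 and 0 were lower, beside 5.52% of all genes higher and 3.14% lower. Both are thick filament proteins. The myosin heavy chain gene *Mhc* rose by 0.89 ± 0.21 on the log2 scale (adjusted p = 0.0133), from 40.6, 47.3 and 45.6 TPM to 74.8, 89.7, 85.2 and 84.3 TPM. Paramyosin (*Prm*) rose by 0.86 ± 0.22 (adjusted p = 0.0215), from 26.1, 25.2 and 28.6 TPM to 44.9, 54.2, 48.9 and 49.4 TPM. The lowest mutant library of either gene was above the highest control library. A higher level in the mutant was not particular to these genes. It was also called for 3 of 20 tested Z-disc, titin-like and filament assembly genes, 1 of 9 calcium and membrane genes and 2 of 8 energy supply genes, with 0 lower. The medians of these lists were 0.40, 0.43 and 0.43, beside 0.18 over the 10 genes.

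The light chains that bind *Mhc* did not follow it to the same extent. *Mlc1* was 70.6 to 83.8 TPM in w1118 and 88.0 to 113 TPM in the mutant, with no overlap but a change of 0.34 ± 0.19 (adjusted p = 0.355), and *Mlc2* was 119 to 134 against 115 to 140 TPM (0.04 ± 0.12, adjusted p = 0.903). The troponins and tropomyosin changed by 0.11 ± 0.18 (*up*), 0.21 ± 0.23 (*wupA*) and 0.28 ± 0.22 (*Tm2*), none past the threshold. With *Tm2*, 4 genes lay wholly above the controls, beside 20.4% of all genes, and 0 wholly below, beside 15.5%. At an unadjusted p under 0.05 2 genes were higher and 1, *TpnC4*, was lower (−0.71 ± 0.30, adjusted p = 0.194).

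Without w1118 normoxia replicate 2 neither gene passed, with adjusted p = 0.0665 for *Mhc* and 0.0763 for *Prm*. *Prm* also missed the threshold without w1118 normoxia replicate 3 or 4 or *foxo* normoxia replicate 2 (adjusted p = 0.0907, 0.0550 and 0.0633). Without w1118 normoxia replicate 3 *TpnC4* was lower in the mutant (−1.08, adjusted p = 0.0470). The change of *Mhc* was 0.83 without w1118 normoxia replicate 2, and that of *Prm* 0.82 to 0.91 in the 4 fits that lost it.

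In hypoxia 5 of the 10 genes were higher in *foxo* mutants than in w1118 and 0 were lower, beside 7.65% of all genes higher and 9.42% lower. They were 4 of the 5 thick filament genes, *Prm* (1.32 ± 0.20, adjusted p = 0.000245), *Mhc* (0.87 ± 0.19, adjusted p = 0.00491), *Mlc1* (0.65 ± 0.18, adjusted p = 0.0172) and *Mlc2* (0.36 ± 0.11, adjusted p = 0.0356), and the flight muscle actin *Act88F* (1.55 ± 0.45, adjusted p = 0.0259). All 10 changes were above 0, with a median of 0.47 beside −0.22 over all genes tested. At an unadjusted p under 0.05 by limma 6 were higher and 0 lower. This comparison and the normoxia one share no libraries, but each shares its libraries with the hypoxia comparisons.

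*Prm* was 14.8, 25.9, 15.6 and 23.8 TPM in w1118 hypoxia and 65.4, 34.0, 52.3 and 53.7 TPM in *foxo* hypoxia. *Mhc* was 20.9 to 42.9 TPM against 49.6, 63.2, 56.9 and 67.4 TPM, and *Mlc2* was 77.5 to 93.4 TPM against 129, 100.4, 106 and 109 TPM. The groups of these 3 genes did not overlap, and neither did those of *fln* (0.847 to 1.47 against 1.62 to 2.93 TPM, 0.57 ± 0.23, adjusted p = 0.111), which makes 4 of 10 wholly above, beside 7.67% of all genes, and 0 wholly below, beside 8.49%. *Mlc1* overlapped by 1 library, since 54.7 TPM in w1118 hypoxia replicate 2 exceeded 51.2 TPM in *foxo* hypoxia replicate 2.

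The thin filament genes of the shared set did not pass, at 0.18 ± 0.17 for *up* (95% interval −0.17 to 0.53), 0.21 ± 0.21 for *wupA* (−0.24 to 0.66) and 0.20 ± 0.20 for *Tm2* (−0.22 to 0.63). With median-of-ratios scaling 7 genes were higher, *up* and *wupA* among them, beside 12.1% of all genes higher and 6.45% lower, and 65.2% of the calls were then upward against 44.8% on the TPM as deposited. With only the 8 libraries compared in the fit *Prm* alone passed.

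The calls of *Prm* and *Mhc* held with each library left out, and the other 3 did not. *Mlc2* was lost without w1118 hypoxia replicate 1, 2 or 3, *foxo* normoxia replicate 1 or 4 or *foxo* hypoxia replicate 1 or 3, with adjusted p from 0.0505 to 0.135. *Act88F* was lost without w1118 hypoxia replicate 3 or 4 or *foxo* hypoxia replicate 1, 2 or 3, with adjusted p from 0.0608 to 0.0887. *Mlc1* was lost without w1118 hypoxia replicate 3 (adjusted p = 0.0611) or *foxo* hypoxia replicate 1 (0.0546). The count was 2 without either of these libraries and 3 without *foxo* hypoxia replicate 3.

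Ratios of genes within a library do not depend on how the library was scaled. They are given as a description of pairs chosen after the levels were seen. A ratio keeps any difference between libraries in how level varies with transcript length. The slope of log2 level on log2 length was −0.168 to −0.121 in w1118 normoxia and −0.176 to 0.0467 in w1118 hypoxia. In the mutant it was −0.141 to −0.0456 in normoxia and −0.222 to 0.0241 in hypoxia. The ratio of *Prm* to *Mlc1* was 0.312 to 0.357 in w1118 normoxia, 0.428 to 0.502 in w1118 hypoxia, 0.478 to 0.556 in *foxo* normoxia and 0.663 to 0.928 in *foxo* hypoxia. It did not overlap between the groups in any of the 4 comparisons of the design. The ratio of *Mhc* to *up* was 0.274 to 0.397 and 0.235 to 0.381 in w1118 normoxia and hypoxia and 0.538 to 0.648 and 0.480 to 0.627 in the mutant. It separated the genotypes in both conditions and overlapped between normoxia and hypoxia in both genotypes. That of *wupA* to *up*, troponin I to troponin T, was 0.569 to 0.812 over all 15 libraries and overlapped in every comparison.

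**Figure D3:**
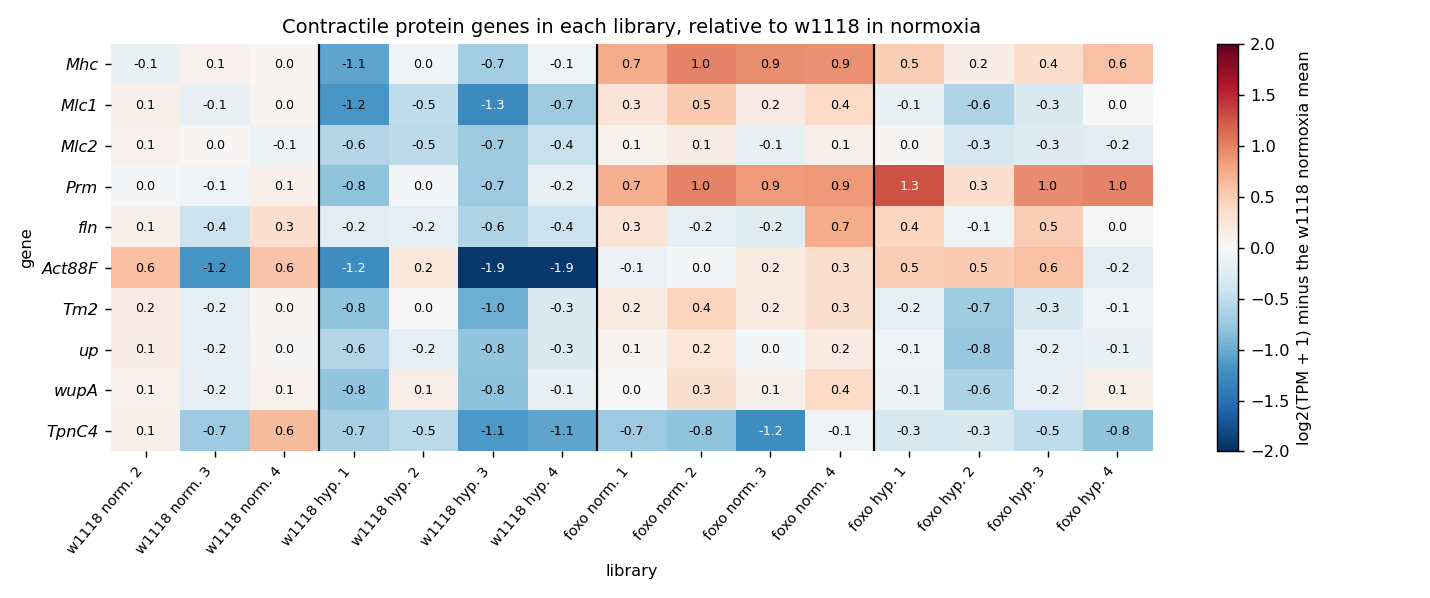
Level of each gene (rows) in each library (columns) as log2(TPM + 1) minus the mean of w1118 in normoxia, with black lines between the groups. *Mhc* and *Prm* are above 0 in all 8 mutant libraries, and w1118 hypoxia 1 and 3 are below 0 in all 10 rows.

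The genes moved together from library to library. Over the 15 libraries the Pearson correlation of log2(TPM + 1) among the 7 shared genes had a median of 0.80 over 21 pairs (0.61 to 0.97), and of the deviations from the group means 0.85 (0.39 to 0.99). The 3 flight muscle genes correlated among themselves at 0.63 to 0.74, and with the other 7 genes at −0.02 to 0.65. These are descriptions over libraries that share their scaling. Of all other genes with a mean of at least 10 TPM, CG32280 (r = 0.94), CG5177 (0.92), CG31778 (0.92), CG7378 (0.92) and CG43693 (0.91) were the most like the mean of the standardised levels over the 15 libraries. CG43693, for example, stood at 44.5 ± 3.00, 25.3 ± 7.22, 59.1 ± 3.67 and 43.4 ± 8.27 TPM in w1118 normoxia, w1118 hypoxia, *foxo* normoxia and *foxo* hypoxia.

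Of the 72 transcripts 48 reached a mean of 1 TPM in a group and were tested among 18362 transcripts. In w1118 12 of them fell in hypoxia, beside 8.72% of all transcripts, and 1 rose, beside 14.8%. In the mutant 9 fell, beside 10.9%, and 0 rose, beside 6.54%, with 0 of 15 at an unadjusted p under 0.05 upward. In normoxia 6 were higher in the mutant and 1 was lower, beside 5.54% and 3.22%, and in hypoxia 8 were higher and 1 was lower, beside 6.05% and 8.19%. By limma the hypoxia effect differed between the genotypes for 0 transcripts, beside 1.48% and 0.801%, with 6 at an unadjusted p under 0.05. Transcripts of a gene share most of their exons and the division of reads among them is an estimate whose error is not known here. The RefSeq identifiers were not tied to protein forms. Shares of a gene are described below for some transcripts, without a test. Other shares also did not overlap between normoxia and hypoxia in w1118, such as those of NM_001259121.2, NM_078863.6 and NM_165187.3 of *Mhc*. How often shares separate over all transcripts was not counted.

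The troponin T transcript NM_080349.3 fell in both genotypes. It was measured at 23.2, 13.5 and 20.6 TPM in w1118 normoxia and at 1.65, 12.9, 0.943 and 7.32 TPM in hypoxia (−1.99 ± 0.55, adjusted p = 0.0170). In the mutant it went from 12.3, 22.2, 17.8 and 11.4 TPM to 6.51, 1.43, 2.88 and 3.19 TPM (−1.98 ± 0.51, adjusted p = 0.0131). No hypoxia library reached a normoxia library of its genotype. Its share of the gene was 14.04 ± 2.37% and 5.16 ± 4.51% in w1118 normoxia and hypoxia, and 10.96 ± 3.25% and 2.99 ± 1.45% in the mutant. Another *up* transcript, NM_001169270.2, was higher in the mutant in normoxia (0.716 to 4.46 against 5.67 to 12.2 TPM, 1.47 ± 0.35, adjusted p = 0.0155) and in hypoxia (2.81 to 5.39 against 8.90 to 15.02 TPM, 1.35 ± 0.32, adjusted p = 0.00962), although the gene as a whole did not pass in either.

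The *Mhc* transcript NM_001169521.2 was the only 1 of the 48 that rose in hypoxia in w1118. It went from 2.41, 3.05 and 3.63 TPM to 4.40, 6.38, 4.83 and 5.57 TPM (0.64 ± 0.19, adjusted p = 0.0209) while its gene did not rise, and its share of the gene went from 6.78 ± 1.07 to 16.8 ± 3.41%. In the mutant the share was 13.4 ± 0.990% in normoxia and 18.8 ± 2.16% in hypoxia, and the conditions did not overlap in either genotype. In the mutant it was at 9.96 to 12.3 TPM in normoxia and 9.81 to 13.5 TPM in hypoxia, above w1118 in both conditions (1.60 ± 0.19, adjusted p = 4.8e-05, and 0.94 ± 0.17, adjusted p = 0.00129). The most abundant *Mhc* transcript, NM_165186.3, fell in both genotypes (−0.73 ± 0.22, adjusted p = 0.0273, and −0.82 ± 0.21, adjusted p = 0.0103) and was higher in the mutant in both conditions (0.98 ± 0.22, adjusted p = 0.0113, and 0.88 ± 0.21, adjusted p = 0.00808).

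For *Prm* the leading transcript NM_079258.3 fell in w1118 hypoxia, from 20.3, 16.5 and 16.7 TPM to 5.99, 12.4, 6.76 and 11.9 TPM (−0.93 ± 0.28, adjusted p = 0.0254). NM_168290.3 had 2.40, 5.31 and 6.40 TPM in w1118 normoxia and 6.37, 9.49, 6.77 and 8.77 TPM in hypoxia, without passing. The shares of the gene were 67.3 ± 9.71 and 45.4 ± 4.24% for the former and 17.6 ± 7.30 and 40.0 ± 3.73% for the latter, and neither share overlapped between normoxia and hypoxia in w1118. In the mutant both shares overlapped between the conditions. In hypoxia both transcripts were higher in the mutant (1.62 ± 0.26, adjusted p = 0.000417, and 1.04 ± 0.27, adjusted p = 0.0179).

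The troponin I gene *wupA* did not pass in any comparison, and its main transcript NM_167607.3 fell in w1118 hypoxia, from 59.4, 49.3 and 58.5 TPM to 24.2, 43.5, 27.8 and 39.8 TPM (−0.74 ± 0.22, adjusted p = 0.0255). NM_078674.4, the next in level, was 22.6 to 25.3 TPM in normoxia and 18.3 to 33.7 TPM in hypoxia. The share of NM_167607.3 was 63.3 ± 0.446 and 49.9 ± 4.71% in w1118, and 61.0 ± 1.59 and 54.7 ± 2.58% in the mutant, with no overlap in either genotype. That of NM_078674.4 was 26.9 ± 2.25 and 36.8 ± 1.99%, and 27.9 ± 2.02 and 32.7 ± 1.47%, also with no overlap.

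The number of transcripts that passed moved with single libraries. In w1118 the count that fell was 5 without normoxia replicate 2, 6 without normoxia replicate 4 and 6 without hypoxia replicate 3. In the mutant it was 4 or 5 without any 1 of 7 libraries, which are normoxia replicates 1 to 4 and hypoxia replicates 1 to 3. NM_001169521.2 did not pass in w1118 without normoxia replicate 2 or 3 or hypoxia replicate 2 (adjusted p up to 0.118), nor with median-of-ratios scaling or a pseudocount of 5. NM_080349.3 did not pass in w1118 without normoxia replicate 2 or 4 or hypoxia replicate 3 (adjusted p up to 0.0722), and NM_079258.3 and NM_167607.3 without these or hypoxia replicate 1 (adjusted p up to 0.105 and 0.0960). The fall of NM_165186.3 in w1118 was lost without normoxia replicate 2, 3 or 4 or hypoxia replicate 1 or 3 (adjusted p up to 0.0891). Between the genotypes, NM_001169270.2 was lost in normoxia without w1118 normoxia replicate 3 (adjusted p = 0.0830), and NM_168290.3 in hypoxia without w1118 hypoxia replicate 3 or *foxo* hypoxia replicate 1 (adjusted p up to 0.0666). The count higher in the mutant in hypoxia was 5 without w1118 hypoxia replicate 3, 4 without *foxo* hypoxia replicate 1 and 5 without *foxo* hypoxia replicate 3.

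**Figure D4:**
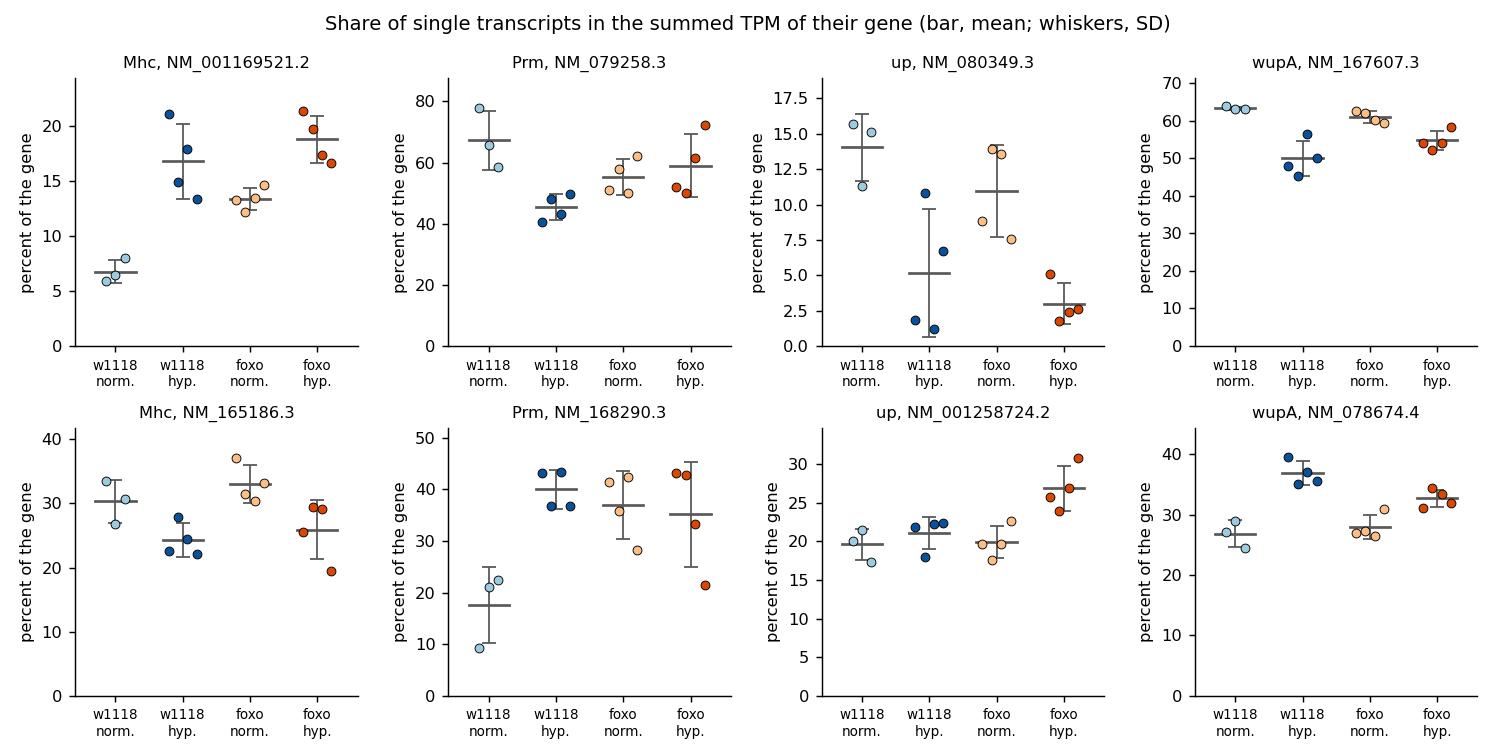
Share of single transcripts in the summed TPM of their gene, in percent (y axis, starting at 0), by group (x axis), where each point is a library, the bar is the mean and the whiskers are the SD. NM_080349.3 of troponin T goes from 14.04 to 5.16% in w1118 and from 10.96 to 2.99% in the mutant, and NM_001169521.2 of *Mhc* from 6.78 to 16.8% in w1118 and from 13.4 to 18.8% in the mutant.

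Among 11 other genes of contractile proteins 3 fell in w1118 hypoxia and 0 rose, beside 9.84% and 16.2% of all genes, and at an unadjusted p under 0.05 by limma 5 were lower and 0 higher. With median-of-ratios scaling 8 of the 11 fell, beside 17.6% of all genes. *Act57B*, *Mp20*, *TpnC41C*, *Zasp66* and *unc-45* are named below after their values were seen. Of the 3 genes that fell 2 are troponin C genes. *TpnC47D*, a member of the same family as *TpnC4*, went from 13.5, 14.9 and 14.8 TPM to 2.36, 4.25, 2.85 and 3.00 TPM (−1.92 ± 0.19, adjusted p = 3.2e-06), and *TpnC73F* from 29.0 to 37.5 TPM to 11.8 to 23.7 TPM (−0.96 ± 0.24, adjusted p = 0.00817). The third gene that fell was the actin *Act57B*, from 169, 156 and 175 TPM to 61.9, 148, 68.5 and 110 TPM (−0.86 ± 0.25, adjusted p = 0.0214), which missed the threshold without w1118 normoxia replicate 2 or 4 or w1118 hypoxia replicate 3 and with only the libraries compared. In the mutant *TpnC47D* also fell, from 13.8 to 16.9 TPM to 6.48 to 10.3 TPM (−0.75 ± 0.18, adjusted p = 0.00554), and *TpnC25D* rose, from 29.5 to 33.9 TPM to 37.8 to 61.2 TPM (0.72 ± 0.15, adjusted p = 0.00242). The fall of *TpnC47D* was larger in w1118 by 1.17 ± 0.26 (adjusted p = 0.0241), the only 1 of the 11 genes with such a difference on the TPM as deposited, against 3 with median-of-ratios scaling. This difference held in 9 of 9 other settings and with 7 of the 15 libraries left out in turn. It missed the threshold without w1118 normoxia replicate 2, 3 or 4, w1118 hypoxia replicate 4, *foxo* normoxia replicate 1, 3 or 4 or *foxo* hypoxia replicate 1.

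Of these 11 genes 1 was higher in the mutant in normoxia and 0 were lower, beside 5.52% and 3.14% of all genes. The 1 was the actin *Act79B* (37.4 to 40.7 against 52.2 to 65.1 TPM, 0.61 ± 0.15, adjusted p = 0.0153). It did not pass without w1118 normoxia replicate 3 or 4 or *foxo* normoxia replicate 2. In hypoxia 5 were higher and 0 lower, beside 7.65% and 9.42% of all genes. They were *Act79B* (24.9 to 34.9 against 57.3 to 71.7 TPM, 1.17 ± 0.14, adjusted p = 1.6e-05), *TpnC47D* (1.24 ± 0.18, adjusted p = 0.000122), *Act57B* (61.9 to 148 against 136 to 247 TPM, 1.06 ± 0.23, adjusted p = 0.00494), the calponin-like muscle protein gene *Mp20* (69.4 to 120.1 against 139 to 326 TPM, 1.37 ± 0.23, adjusted p = 0.000475) and *TpnC41C* (0.77 ± 0.21, adjusted p = 0.0169), whose call was lost without w1118 hypoxia replicate 3 or *foxo* hypoxia replicate 1 or 3. The actins and the troponin C genes resemble each other in sequence, so the division of reads within each family is uncertain. The median over the list was −0.41 in w1118, −0.05 in the mutant, 0.22 between the genotypes in normoxia and 0.39 in hypoxia.

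The genes of the Z-disc, titin-like springs and filament assembly include 1 with a change over 2 on the log2 scale. *Mlp60A*, a muscle LIM protein, was measured at 464, 472 and 471 TPM in w1118 normoxia and at 83.6, 108, 69.8 and 95.2 TPM in hypoxia (−2.40 ± 0.18, adjusted p = 1.7e-07). In the mutant it stood at 491, 529, 400.2 and 431 TPM in normoxia and at 527, 302, 422 and 410 TPM in hypoxia. The difference of the hypoxia effect was −2.22 ± 0.24 (adjusted p = 0.000156), and it held in all 9 other settings and with each of the 15 libraries left out. The ratio of *Mlp60A* to *Mlc2*, free of scaling, was 3.45 to 3.96 in w1118 normoxia, 0.901 to 1.23 in w1118 hypoxia and 3.01 to 4.09 in the mutant libraries. Of the 20 genes tested in this list 3 rose (*cher*, *Zasp66* and *unc-45*) and 1 fell in w1118, beside 16.2% and 9.84% of all genes, with a median of 0.34 beside 0.22. By limma 0 changed in the mutant, where 2 had an unadjusted p under 0.05, and with median-of-ratios scaling 3 rose there. The rise of *cher* was lost without w1118 normoxia replicate 2, that of *unc-45* without w1118 normoxia replicate 2 or 4, and that of *Zasp66* without w1118 normoxia replicate 3 or 4 or w1118 hypoxia replicate 2 or 4.

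**Figure D5:**
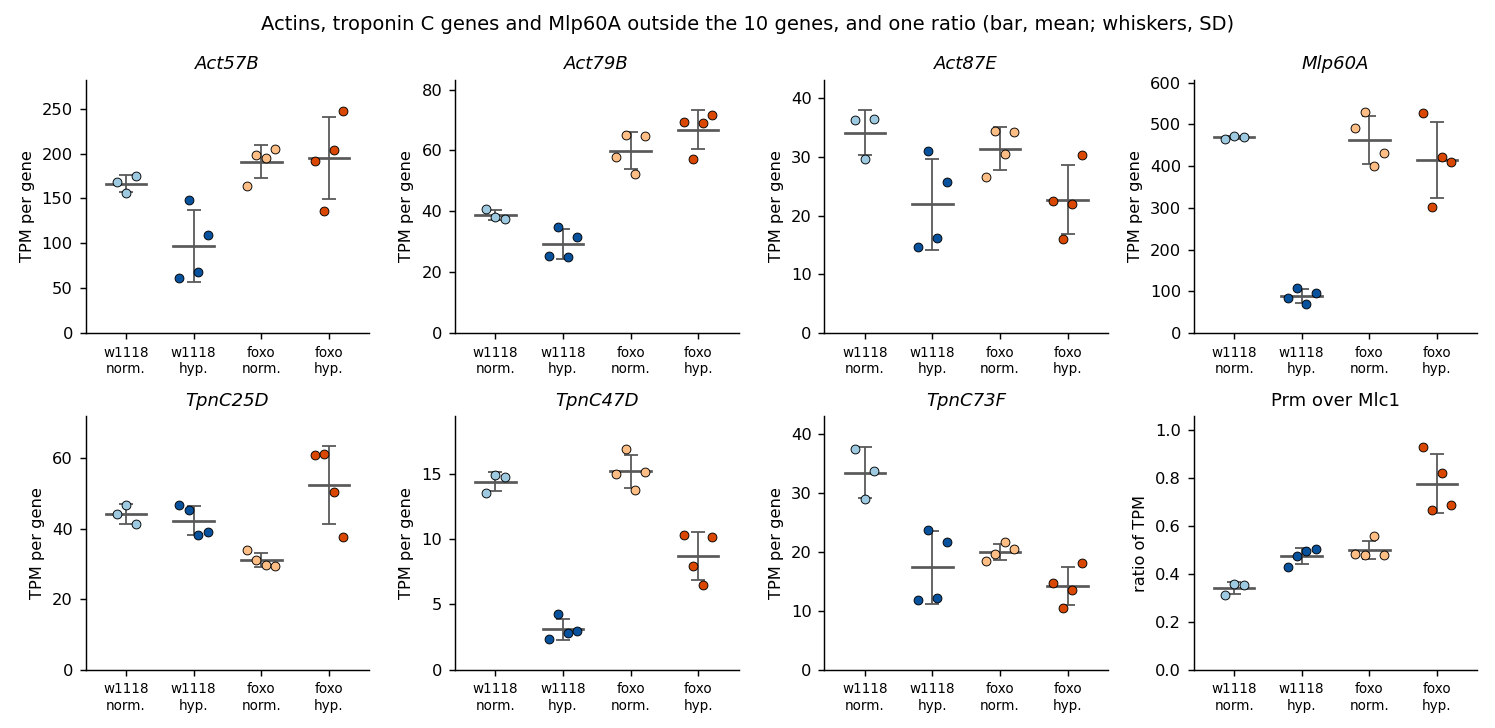
Level in TPM (y axis, starting at 0) of 3 actin genes, 3 troponin C genes and *Mlp60A* in the 4 groups (x axis), and the ratio of *Prm* to *Mlc1*, where each point is a library, the bar is the mean and the whiskers are the SD. *Mlp60A* lies at 69.8 to 108 TPM in w1118 hypoxia and at 302 TPM or more in every other library.

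Of 8 genes that supply muscle with energy 2 rose and 4 fell in w1118 hypoxia on the TPM as deposited, beside 16.2% and 9.84% of all genes, and 0 rose and 4 fell with median-of-ratios scaling. Arginine kinase (*Argk*), which buffers ATP in muscle, fell by 0.40 ± 0.14 (adjusted p = 0.0383), from 567 ± 49.4 to 430 ± 55.4 TPM, a call lost without w1118 normoxia replicate 2, 3 or 4 or w1118 hypoxia replicate 1 or 3. In the mutant 1 rose and 3 fell, beside 9.34% and 13.5%, and 0 rose and 3 fell with median-of-ratios scaling. Among those that fell was glycerol-3-phosphate dehydrogenase (listed as *Gpdh*, −0.90 ± 0.17, adjusted p = 0.00137, from 299 ± 27.4 to 162 ± 31.0 TPM). Of 9 calcium and membrane genes, beside the same shares of all genes, 1 rose in w1118 hypoxia (*Calx*, an exchanger of sodium and calcium, 0.84 ± 0.25, adjusted p = 0.0217, lost without w1118 normoxia replicate 2 or w1118 hypoxia replicate 3 or 4) and 1 fell in the mutant (*slo*, a potassium channel, −1.01 ± 0.24, adjusted p = 0.00645). With median-of-ratios scaling 1 of the 9 rose and 2 fell in w1118 and 4 fell in the mutant, beside 17.6% and 17.7% of all genes falling. Of 9 muscle regulators 6 were tested and 0 passed by limma in any comparison (1 at an unadjusted p under 0.05 in each genotype for hypoxia), though 1 fell in each with median-of-ratios scaling, with *Mef2*, the main muscle transcription factor, at 0.48 ± 0.29 in w1118 (adjusted p = 0.226). Of 7 cytoplasmic actin and myosin genes 0 passed by limma in any comparison (1 at an unadjusted p under 0.05 in w1118 hypoxia), though 2 fell in w1118 with median-of-ratios scaling, and the nearest in w1118 hypoxia was the light chain gene *sqh* (0.39 ± 0.15, adjusted p = 0.0694).

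Markers of other tissues moved with the same comparisons. In w1118 hypoxia, where 9.84% of all genes fell, 11 of 15 eggshell genes fell, and their summed level went from 29069 to 39766 TPM to 6388 to 9365 TPM. Of 7 fat body markers 4 fell (summed 15311 to 28365 against 2810 to 5849 TPM), with 6 changes below 0 and 1 above. Most of this sum was *Yp1*, *Yp2* and *Yp3*, with means of 7404, 6742 and 6927 TPM in w1118 normoxia. The means of *Lsp2* were 20.4 and 21.0 TPM in w1118 normoxia and hypoxia, and those of *Cyp4g1* 670 and 601 TPM. All 7 of 7 midgut markers fell (summed 5145 to 5624 against 997 to 1515 TPM). In the mutant 10 eggshell genes, 5 fat body markers and 7 midgut markers fell, beside 13.5% of all genes. In hypoxia 4 fat body and 6 midgut markers were higher in the mutant than in w1118, beside 7.65% of all genes. In normoxia 1 fat body and 4 midgut markers were higher in the mutant and 1 midgut marker was lower, beside 5.52% and 3.14% of all genes. Of the 15 eggshell genes 0 were called in normoxia, but 14 changes were below 0, with a median of −0.92. At an unadjusted p under 0.05 by limma 5 were lower and 0 higher. The eggshell sum was 29069 to 39766 TPM in w1118 normoxia and 10246 to 26971 TPM in mutant normoxia. Of 6 photoreceptor markers 0 passed by limma in any comparison (2 at an unadjusted p under 0.05 in w1118 hypoxia, both above 0), and of 6 neuronal markers only *elav*, at 0.503 to 1.82 TPM there, fell in the mutant, a call lost with a pseudocount of 0.1 and outside the test at a 5 TPM minimum. No gene of these 5 lists was under 1 TPM in every library. The part of these shifts in the values of the contractile genes was not tested.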

How the data were processed

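RNA was extracted with Trizol from whole mated females of each genotype, treated with DNase, selected for poly-A and sequenced on a NextSeq instrument after a stranded Ultra II Directional preparation. The authors quantified reads with kallisto against RefSeq mRNA (dm6) and tested with sleuth, with versions not given in the sources used here. Deposited values are TPM per transcript for each of 15 libraries, with totals of 998679.4 to 999016.0, so no read number is left and the depth is unknown. Of 34111 transcripts 138 had no value, and 5 gene names written as dates were restored. Tables of the authors' own comparisons of hypoxia in each genotype (p-values, q-values, betas and fold changes) were not used. No column belonged to samples outside the 15 labelled ones.

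TPM were summed per gene. The 10288 genes that reached a mean of 1 TPM in some group were fitted as log2(TPM + 1) in 1 model of the 4 groups with limma 3.58.1 and its intensity trend in R 4.3.3, with Benjamini-Hochberg adjustment over all genes, and the same was done for 18362 transcripts. A pseudocount of 1 understates changes of low genes. Adjusted p-values come from these fits unless another setting is named. Their error is the spread within groups of 3 or 4 biological samples, pooled over the 4 groups and moderated across genes. Leaving out a library of 1 group can therefore change a call in another. Summaries and figures used Python 3.11.15, pandas 2.3.3 and matplotlib 3.10.9, and the fit was tested on simulated data. Loci come from an Ensembl annotation of BDGP6, the same assembly as dm6.

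The naming rule took all 10 genes and their tested transcripts, the 2 genes of smallest p from each other list and comparison, and the 5 genes of most similar pattern. Only some of these transcripts and list genes are described above, so one that is not named may still have passed. The genes and lists were chosen with earlier results of these data known. Same-numbered w1118 libraries deviated together (correlations of deviations from the group means 0.142, 0.374 and 0.177, each the highest for its own number), while *foxo* libraries gave 0.2, −0.071, 0.139 and 0.331. Between the genotypes same-numbered libraries gave 0.169, 0.047 and −0.119 in normoxia and 0.293, 0.048, −0.216 and 0.347 in hypoxia. The labels do not say what a number marks, so a pairing was not established. The replicate block applied the numbers to all 15 libraries. Alternatives were no filter, a 5 TPM minimum, pseudocounts of 0.1 and 5, median-of-ratios and trimmed-mean scaling, totals that leave out genes of ribosomal proteins and eggshell, fits of just the groups compared, a replicate block, a covariate for how level varies with transcript length in a library, a 1.5-fold minimum and leaving out each library.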

Additional observations from a re-analysis of the deposited data

Results flagged for a closer look

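Among 189 groups of 4 libraries examined, 7 held a library far from the others, where chance gives about 1 in 20 groups. Of the genes only *Act88F* was concerned, with 4.39 TPM in *foxo* hypoxia replicate 4 against 7.85 to 8.46 TPM in the other libraries of that group. Of the *Mhc* transcripts, NM_165192.4 was at 1.24 TPM in *foxo* normoxia replicate 1 (others 3.12 to 3.34) and at 1.54 TPM in *foxo* hypoxia replicate 3 (others 0.685 to 0.808). The *wupA* transcript NM_001258805.2 was at 1.86 TPM in *foxo* normoxia replicate 3, with the others near 0, and at 1.08 TPM in *foxo* hypoxia replicate 1 (others 0 to 0.0806). NM_167604.4 of the same gene was at 0.934 TPM in *foxo* normoxia replicate 1 (others 1.44 to 1.48), and the *Prm* transcript NM_168291.1 at 2.97 TPM in *foxo* normoxia replicate 4 (others 1.88 to 2.03).

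The hypoxia effect differed between the genotypes, by the interaction term in limma, for *TpnC47D* (w1118 minus *foxo* −1.17, adjusted p = 0.0241) and for *Mlp60A* (−2.22, adjusted p = 0.000156). Neither is one of the 10 genes. With median-of-ratios scaling 3 of the 11 other contractile genes had such a difference, against *TpnC47D* alone on the TPM as deposited.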

How the results depend on the processing

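Of 9729 values compared with the reported ones 8948 kept their call and stayed close, 240 moved, 249 gained a call and 292 lost it. No called value changed sign, and 352 uncalled values did. The number of the 10 genes that fell in w1118 hypoxia (2) was 8 with median-of-ratios and with trimmed-mean scaling, 6 with the total without ribosomal protein and eggshell genes, 7 with the length slope and 1 at a 1.5-fold minimum. In the mutant it (2) was 1 without a filter and 5 with the length slope. With the length slope 21.1% of all genes fell in w1118 and 23.3% in the mutant, against 9.84% and 13.5% as reported, and with trimmed-mean scaling 18.8% fell in w1118. The number higher in the mutant in hypoxia (5) was 1 with only the libraries compared, which gives no fit of the difference. Of the transcripts, the 1 that rose in w1118 became 0 with a pseudocount of 5 and with median-of-ratios scaling, and the 12 that fell became 7 at a 5 TPM minimum and 19 with median-of-ratios scaling. The 9 that fell in the mutant became 5 with a pseudocount of 0.1 and 5 at the 5 TPM minimum. The hypoxia effect was higher in the mutant for 1 transcript with median-of-ratios scaling. The transcript lower in the mutant in normoxia became 0 with a pseudocount of 0.1, 0 at the 5 TPM minimum and 2 with median-of-ratios scaling. In hypoxia the 8 that were higher became 18 with median-of-ratios scaling, and the 1 that was lower became 0 with a pseudocount of 0.1, at the 5 TPM minimum and with median-of-ratios scaling. The cause of these shifts was not tested.

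With each library left out, the genes that fell numbered 2 to 7 in w1118 and 0 to 3 in the mutant. The genes higher in the mutant numbered 0 to 2 in normoxia and 2 to 5 in hypoxia, and 0 to 1 were lower in normoxia. For transcripts the ranges were 0 to 2 rising and 5 to 14 falling in w1118, 4 to 10 falling in the mutant, 4 to 6 higher and 0 to 2 lower in normoxia, and 4 to 10 higher and 0 to 1 lower in hypoxia. Leaving out libraries for transcripts, and all settings for genes outside the 10, were chosen after seeing the data.

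With the replicate block 3 genes fell in w1118 and 2 in the mutant, and 2 and 5 were higher in the mutant in normoxia and hypoxia. The block made the transcript lower in the mutant in normoxia 0. The block used the numbers of all 15 libraries. The labels do not say what a number marks. Between normoxia and hypoxia each w1118 replicate correlated best with its own number, and in the mutant only replicate 4 did.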
